A study of Mus musculus with 31 samples.

Results

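The miR-297, miR-466, miR-467 and miR-669 microRNAs of the mouse were taken as 1 set: every row of the deposited count tables that carries 1 of these 4 numbers, whatever its letter, copy or arm. The rule gave 80 of 1966 mature microRNAs, made up of 31 miR-466, 30 miR-669, 13 miR-467 and 6 miR-297 rows. Of these 80 members, 33 were 5p arms, 35 were 3p arms and 12 had no arm in their name. The mean level over all libraries was at least 10 CPM (counts per 1000000 of the scaled library total) for 8 members, which is 10% of them, against 464 of all 1966 rows (23.6%).

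The libraries were made from small RNA of the right hippocampus. The mice, of strain C57Bl/6 J, were wildtype (WT) or carried a knockout of the serotonin transporter (5-HTT KO). Per the series' design text the mice were kept under standard housing (the water groups) or underwent 4 weeks of exercise or of corticosterone, the main glucocorticoid of rodents. There were 7 WT-water, 5 WT-exercise, 6 WT-corticosterone, 6 KO-water, 5 KO-exercise and 2 KO-corticosterone libraries, 31 in all, each labelled a biological replicate. Age and sex are not given in the sources used here, and the knockout could not be checked, since the transporter's mRNA is not among the features counted.

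A microRNA is cut from a hairpin, and either arm can be loaded into Argonaute, where bases 2 to 8 (the seed) pair with target mRNAs. Most hairpins of this set are repeats of a block that expanded in rodents inside Sfmbt2, a Polycomb-group gene that is imprinted and known best for its role in the placenta. Many of them are rich in runs of alternating bases, so that related members differ little from each other and from simple repeats elsewhere in the genome.

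In the GENCODE vM21 annotation of GRCm38, 81 hairpins carry these numbers. Of these, 71 lie within Sfmbt2 (chromosome 2, 10370510 to 10595253, plus strand). All 71 are on the strand of the gene, none overlaps an exon, and all fall in 1 stretch between exons, from 10461473 to 10523944. The first starts at 10466663 and the last ends at 10518279, so the array spans 51.6 kb. Several names stand for more than 1 hairpin: 12 hairpins give miR-669a, 10 give miR-467a, 8 give miR-466b and 4 give miR-297a, 3 of these last in Sfmbt2. The level of such a member is a sum over its copies, except that 1 copy of miR-669a has its own 3p row (miR-669a-3-3p). The sources used here do not say how the authors assigned reads that fit several copies or several members, so the split between near-identical members is uncertain.

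The other 10 hairpins lie on chromosomes 3, 5, 7, 9, 10, 11 and 13. For 71 of the 80 members at least 1 hairpin lies in Sfmbt2. The remaining 9 members held 1.91% of the counts of the set. Almost all of that was miR-466q, with 573 counts, whose hairpin lies in an intron of Tnik on the strand of that gene; the other 8 had 17 counts together.

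RefSeq mature sequences (GRCm38.p6) were matched for 8 of the 80 members, all of them among the members made outside Sfmbt2. Shown are miR-466q, the only abundant member among them, and 3 others that make the repeat plain, each with its seed in capitals and the rest in lower case. The first lies at chr3:28419988-28420007 (plus strand).
miR-466q: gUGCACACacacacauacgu
miR-466k: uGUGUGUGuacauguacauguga
miR-466i-3p: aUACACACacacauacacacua
miR-467f: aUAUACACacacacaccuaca
Each of these holds GU or AC 4 times in a row (GUGUGUGU or ACACACAC, in either phase, on the strand of the mature microRNA only). So do 6 of the 8 matched members, against 7 of 1667 matched rows outside the set (0.42%). No seed was shared between these 8 members. The most abundant outside row with such a run was miR-672-5p, at 157 CPM, printed here in the same way for comparison.
miR-672-5p: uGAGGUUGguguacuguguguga

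The set was a small part of hippocampal microRNA. Library totals ran from 1011285 to 4052174 counts, of which 20.1% to 28.8% were the neuronal miR-124-3p. The 80 members held 30940 of 67172273 counts over all libraries (0.0461%). There were 27 members with counts in each of the 31 libraries, 19 had 1 to 9 counts in total, and 6 had none, which allows a mean level of up to 0.0447 CPM (3 counts of the total, counting error only). Between 1 and 10 CPM lay 28 members, and 38 with counts lay below 1 CPM.

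The most abundant members came from miR-467 and miR-669. The miR-467 rows held 44.0% of the counts of the set, miR-669 36.0%, miR-466 14.7% and miR-297 5.26%. Mean levels over the 31 libraries were 100.1 CPM ± 20.3 (SD) for miR-467a-5p, 82.3 ± 28.8 for miR-669a-3p and 47.6 ± 18.5 for miR-467e-5p, and these 3 held 49.6% of the counts. Next came miR-467a-3p at 24.3 CPM, miR-669a-5p at 20.7, miR-669c-5p at 16.9 and miR-466b-3p at 12.6. At the threshold of 10 CPM, miR-297a-3p was just inside at 10.6, and miR-467b-5p (9.82), miR-466d-5p (9.57), miR-466d-3p (9.17) and miR-467d-5p (9.03) were just outside. miR-467a-5p, the leading member, stood at rank 249 among the 1966 rows by mean level.

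Arms were used unevenly, and not in the same way by the 4 numbers. Both arms were listed for 33 hairpin names, and 26 of these had at least 100 counts. Of the 26, 15 had more 5p counts and 11 more 3p counts. All 5 miR-467 hairpins were mostly 5p (78.4% to 98.6% of counts), and all 3 miR-297 hairpins were mostly 3p (6.88% to 11.2% from the 5p arm). Among miR-669 hairpins 8 of 11 were mostly 5p, and miR-669a, with 21.0% from the 5p arm, was among the 3 exceptions. Among miR-466 hairpins 5 of 7 were mostly 3p; miR-466b gave 7.63% from the 5p arm, miR-466n 93.5% and miR-466d 49.5%. Precursor names that cover several hairpins, such as miR-669a and miR-467a, give the share over their copies together. Left out of these shares are miR-669a-3-3p (42 counts) and miR-669d-2-3p (16 counts), 3p arms of single copies with rows of their own.

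Along the array, 52 members come from a single hairpin in Sfmbt2. They fall in 2 runs, with a gap between them that holds only hairpins whose names cover several copies. Other hairpins of such names lie inside both runs, and their counts are left out of the sums that follow. The first run, from 0 to 14.6 kb, held 24 members with a summed mean level of 36.3 CPM. The second, from 39.1 to 51.5 kb, held 28 members and 135.7 CPM, of which miR-467e-5p, at its start, made up 47.6. Median levels were 0.262 and 1.14 CPM. This is a description of where the counts fell, with no test.

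**Figure D1:**
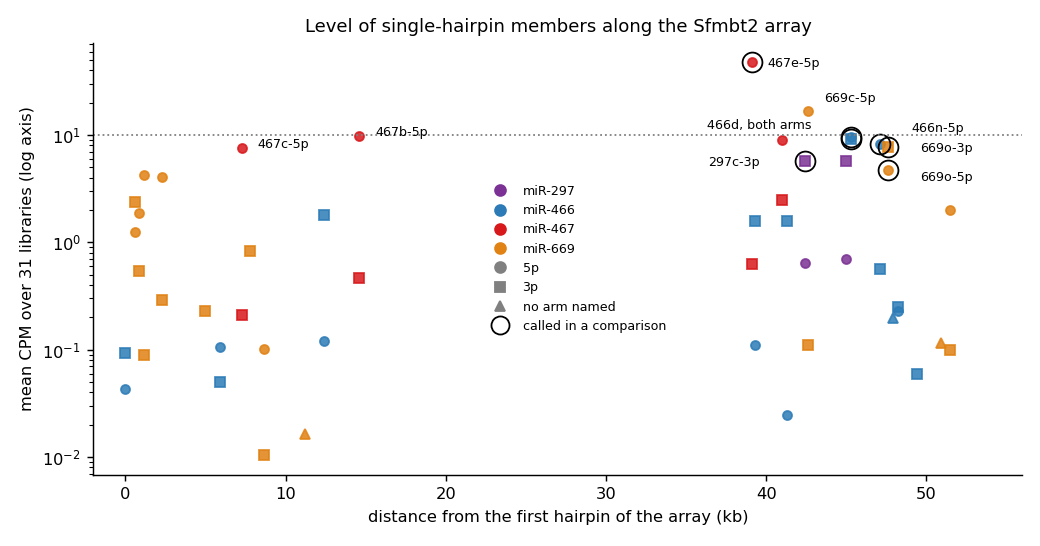
Mean level of each member with a single hairpin in Sfmbt2 (CPM, log axis) against the distance of its hairpin from the first hairpin of the array (kb), coloured by miR number, with the arm as the symbol; members at 0.01 CPM or above are drawn, the dotted line is at 10 CPM and rings mark members called in at least 1 comparison. The 7 ringed members are among 11 of the second run, from 39.1 kb on, that were tested in any comparison; of the first run only 4 were tested, and the difference between the runs was not tested.

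Summed over the 80 members, the level was 394 CPM ± 89.3 (SD, n = 7) in WT-water, where libraries ran from 262 to 517 with a median of 368. WT-exercise libraries stood at 429, 542, 688, 597 and 574 CPM, with a mean of 566 ± 93.7 (n = 5). WT-corticosterone libraries ran from 417 to 567 (median 484.5, mean 486 ± 55.0, n = 6). In each treated WT group the libraries lay in the upper part of the WT-water range or above it, and the ranges overlapped. KO-water libraries ran from 328 to 453 (median 397, mean 399 ± 42.4, n = 6), and the KO-exercise libraries stood at 485, 401, 440, 542 and 517 (mean 477 ± 57.1, n = 5). The 2 KO-corticosterone libraries, at 517 and 462, were both above every KO-water library. A change in the number of cells that make these microRNAs and a change in their level per cell cannot be told apart in bulk tissue.

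**Figure D2:**
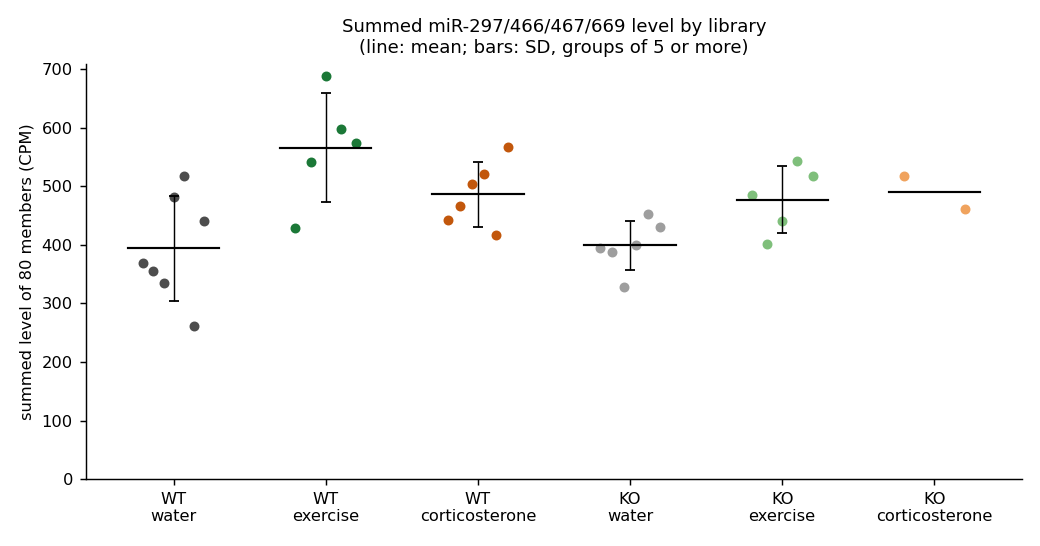
Summed level of the 80 members (CPM) in each of the 31 libraries by group; horizontal lines are group means and bars are 1 SD for groups of 5 or more. WT-exercise libraries (429 to 688 CPM) overlap WT-water (262 to 517), and both KO-corticosterone libraries lie above the KO-water range of 328 to 453.

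The comparison of WT-exercise with WT-water addresses what exercise does to hippocampal microRNAs in wild-type mice. Of the 22 members tested, 6 rose (27.3%) and none fell in edgeR's quasi-likelihood test (Benjamini-Hochberg adjusted p below 0.05); the other 58 members did not pass the filter on low counts. The background was broad: 32.5% of 553 microRNAs tested were called, 19.9% upward and 12.7% downward. The share of members called was thus below the share of all microRNAs called, while every call was upward. The median log2 fold change over the 22 members was 0.52 and over all microRNAs 0.04, and 19 of the 22 were positive (86.4%, against 51.9% of all). With library sizes not rescaled the median of all moved to -0.07, the calls over all microRNAs to 78 up and 85 down, and those of the members to 4 up and none down.

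miR-467e-5p stood at 37.2, 49.3, 83.5, 88.3 and 63.3 CPM in the 5 WT-exercise libraries, and from 18.4 to 41.5 (median 30.7) in WT-water. All but WT-exercise 1 lay above every WT-water library, and the log2 fold change was 1.10 ± 0.25 (SE, edgeR adjusted p = 0.00624). miR-669a-3p, the dominant arm of the 12-copy hairpin, stood at 57.1, 77.4, 142.3, 122.8 and 126.1 CPM against 35.6 to 84.9 (median 55.2). Here only WT-exercise 3, 4 and 5 were above the WT-water range, with a log2 fold change of 0.80 ± 0.27 (edgeR adjusted p = 0.0339). That call was lost in 7 of 12 fits that left out 1 library.

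The 3 called arms from miR-466 hairpins were at low levels. miR-466d-5p stood at 3.72, 10.1, 18.3, 11.4 and 14.8 CPM in WT-exercise and from 4.16 to 5.93 (median 4.90) in WT-water. WT-exercise 1 was below all WT-water libraries and the other 4 were above them all, for a log2 fold change of 1.24 ± 0.30 (edgeR adjusted p = 0.00882). For miR-466n-5p, WT-exercise 1 was inside the WT-water range of 2.34 to 6.23 CPM, at 4.96, and the others, at 6.36, 15.1, 13.5 and 14.3, were above it (1.41 ± 0.33, edgeR adjusted p = 0.00676). miR-466d-3p, the opposite arm of the miR-466d hairpin, was the only member whose groups did not overlap, against 10.3% of all microRNAs tested. It stood at 10.5, 10.1, 11.1, 13.9 and 13.3 CPM in WT-exercise and from 4.16 to 9.03 in WT-water (0.83 ± 0.24, edgeR adjusted p = 0.0197). Its coefficient of variation in WT-exercise, 14.4%, was below the 21.4% that counting alone would give. In WT-water it was 28.3%, against 22.0% from counting.

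miR-669o-3p, at 5.58, 9.54, 14.3, 13.0 and 10.2 CPM against 1.19 to 8.46, was the sixth call (1.06 ± 0.34, edgeR adjusted p = 0.031), and lost it in 5 of 12 fits without 1 library. The leading member, miR-467a-5p, was not called. It stood at 102.3, 124.5, 166.1, 108.9 and 107.7 CPM in WT-exercise and from 72.4 to 124.7 (median 86.5) in WT-water, with a log2 fold change of 0.42 ± 0.17 (edgeR adjusted p = 0.0687). In sample codes that begin with G, 3 WT-exercise against 5 WT-water libraries, no member was called, with 10 of 575 microRNAs called; the values there were 0.85 for miR-467e-5p, 1.05 for miR-466d-5p and 0.95 for miR-466n-5p. Within codes that begin with H, 2 against 2 libraries, 4 of 22 members were called, with 210 of 554 microRNAs called. There the same 3 values were 1.56, 1.62 and 2.34. The labels give no meaning for the letter.

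**Figure D3:**
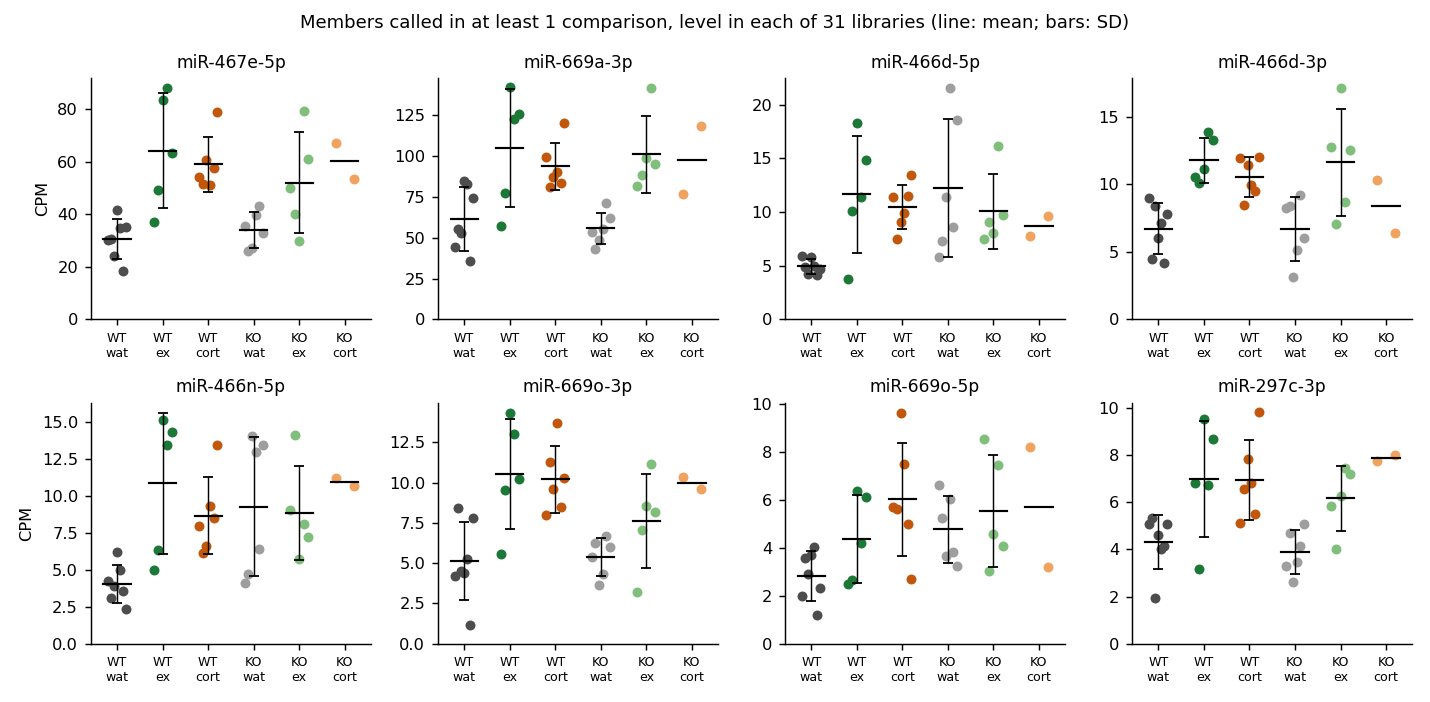
Level (CPM) in each of the 31 libraries of the 8 members called in at least 1 comparison, by group (wat, water; ex, exercise; cort, corticosterone); lines are means and bars 1 SD, drawn for groups of 5 or more. For miR-466d-5p and miR-466n-5p the WT-exercise and KO-water libraries are spread widely, while the 7 WT-water libraries lie between 2.34 and 6.23 CPM.

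Corticosterone in wild type was set against the same 7 WT-water libraries, so its values are not independent of those for exercise. Of 22 members tested, 8 rose (36.4%) and none fell, where 41.9% of 547 microRNAs were called, 24.9% upward and 17% downward. The members' median log2 fold change was 0.43 against 0.06 for all, and 16 of 22 were positive (72.7%, against 52.3%). Without rescaled library sizes the median of all was -0.07, 101 of the 224 calls over all microRNAs were upward, and 5 members rose and none fell.

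miR-467e-5p and miR-466d-5p did not overlap between the groups, as was the case for 13.7% of all microRNAs tested. miR-467e-5p ran from 51.0 to 79.1 CPM (median 55.9) in WT-corticosterone, above the WT-water maximum of 41.5, and its log2 fold change was 1.01 ± 0.19 (edgeR adjusted p = 0.000781). miR-466d-5p ran from 7.504 to 13.4 CPM, above the WT-water maximum of 5.93 (1.13 ± 0.21, edgeR adjusted p = 0.000758). Its coefficient of variation was 14.1% in WT-water and 19.9% in WT-corticosterone, below the 25.8% and 22.4% that counting alone would give. The ranges of miR-466d-5p were thus tighter than its few counts would give. For miR-467e-5p these values were 24.8% and 17.8%, above the 10.3% and 9.39% from counting. These 2 and miR-466n-5p (6.10 to 13.4 CPM, 1.13 ± 0.27, edgeR adjusted p = 0.00415) were called in every fit that left out 1 library, in this comparison and in that of exercise.

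The miR-669o hairpin rose in both arms: miR-669o-3p ran from 7.98 to 13.7 CPM (1.04 ± 0.29, edgeR adjusted p = 0.00989) and miR-669o-5p from 2.68 to 9.62 against 1.19 to 4.04 (1.07 ± 0.31, edgeR adjusted p = 0.0115). miR-669a-3p, at 81.1 to 120 CPM, had 4 of 6 libraries above the WT-water maximum of 84.9 (0.67 ± 0.20, edgeR adjusted p = 0.015). miR-466d-3p (8.44 to 12.1 CPM, 0.68 ± 0.23) and miR-297c-3p (5.13 to 9.83 CPM, 0.75 ± 0.26) had edgeR adjusted p of 0.0265 and 0.0297. Left out 1 library at a time, miR-466d-3p lost the call in 7 of 13 fits, miR-297c-3p in 6, miR-669a-3p in 3 and miR-669o-5p in 1 of the 8 fits that tested it. Within codes that begin with G, 4 of 21 members were called, with 135 of 536 microRNAs called. The values there were 0.75 for miR-467e-5p, 0.90 for miR-466d-5p and 0.72 for miR-466n-5p, the last not called. Only 1 WT-corticosterone code begins with H.

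Other abundant arms were not called. In WT-corticosterone, log2 fold changes were -0.12 ± 0.22 for miR-467a-3p, -0.27 ± 0.24 for miR-669a-5p, -0.07 ± 0.23 for miR-669c-5p and 0.19 ± 0.16 for miR-467a-5p, with edgeR adjusted p between 0.355 and 0.814. So the hairpin name miR-669a had 1 arm called and 1 not, and the difference between its arms was not tested. As a share, the 5p arm gave 26.8% ± 3.62 (SD, n = 7) of miR-669a counts in WT-water and 16.2% ± 5.60 (n = 6) in WT-corticosterone. The WT-exercise libraries gave 33.8%, 29.8%, 10.5%, 13.9% and 13.0%, the first 2 above all or most WT-water libraries and the last 3 below all of them. The share was 26.8% ± 6.71 (n = 6) in KO-water and 15.1% ± 4.72 (n = 5) in KO-exercise.

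WT-corticosterone against WT-exercise called none of 21 members, with 0% of 521 microRNAs called, and no member's groups were apart, as 0.768% of all were. At an unadjusted p below 0.05 in edgeR there were 2 of the 21 members, against 20 of the 521 microRNAs. They were miR-467b-5p (-0.69 ± 0.27) and miR-467a-3p (-0.52 ± 0.21), and DESeq2 called no member either. miR-467a-3p ran from 15.5 to 31.3 CPM after corticosterone and from 28.1 to 38.2 after exercise.

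**Figure D4:**
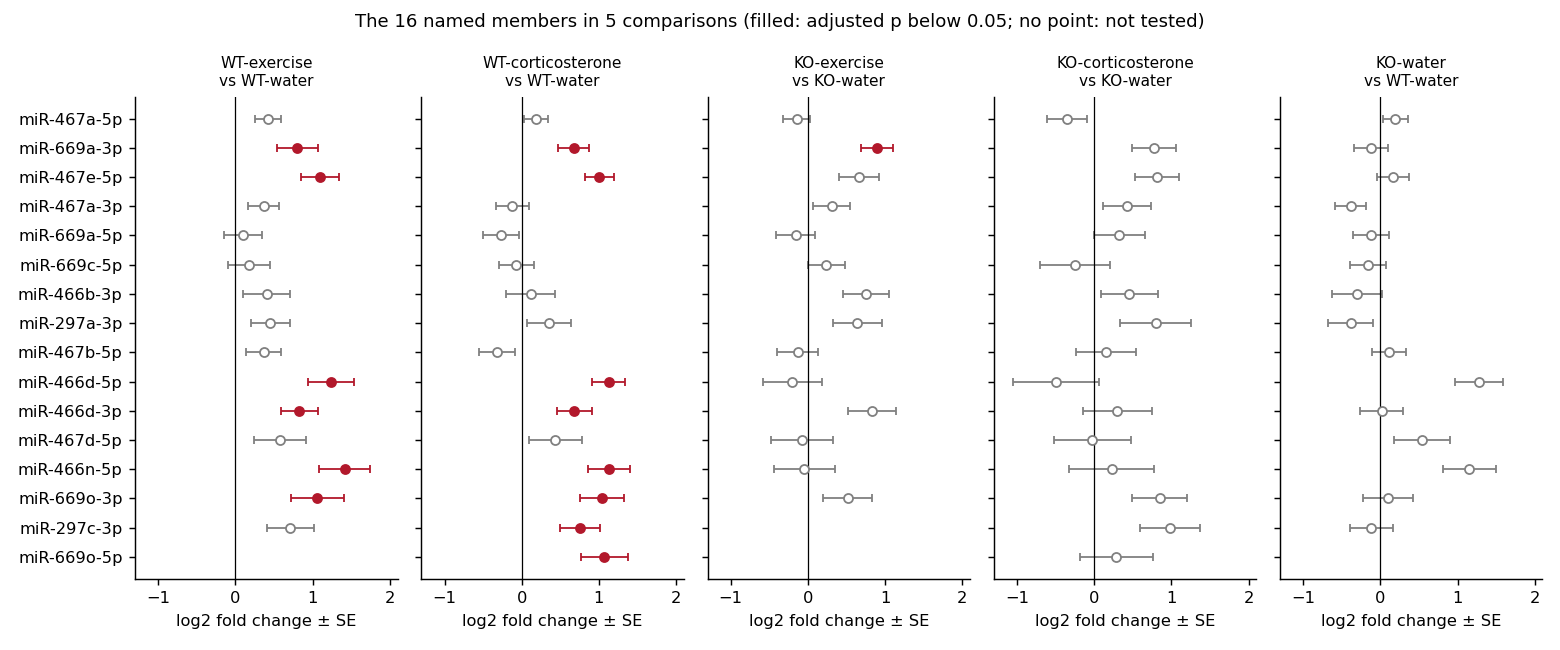
Log2 fold change ± SE from edgeR of the 16 named members, ordered by mean level, in 5 comparisons; filled points have an adjusted p below 0.05 and a missing point was not tested. Filled points lie between 0.67 and 1.41, and none is negative; miR-466d-5p and miR-466n-5p are open in the KO-water comparison at 1.28 and 1.15.

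In knockout mice exercise gave 1 call among 19 members tested (5.26%), where 4.02% of 523 microRNAs were called, 3.06% upward and 0.956% downward. It was miR-669a-3p, at 81.5, 88.5, 98.9, 141 and 95.1 CPM in KO-exercise and from 43.4 to 71.04 (median 54.4) in KO-water. The groups did not overlap, as for 6.12% of all microRNAs, and the log2 fold change was 0.90 ± 0.20 (edgeR adjusted p = 0.0215). In the same comparison 2 of the 5 listed microglial and immune microRNAs rose, and their part in this result was not tested. The call was lost in 6 of 11 fits that left out 1 library, where the value stayed between 0.71 and 0.99. No member was called within either code letter, with 3 of 539 (G) and 1 of 564 (H) microRNAs called. There miR-669a-3p was at 0.87 ± 0.24 (G) and 0.77 ± 0.43 (H). The call was kept with either 3 of the 6 KO-water libraries described next (0.81, edgeR adjusted p = 0.0176, and 0.84, edgeR adjusted p = 0.0287). In those fits 177 of 540 and 118 of 544 microRNAs were called, against 21 of 523 with all 6 KO-water libraries. miR-467e-5p, at 50.04, 40.2, 29.7, 79.4 and 61.2 CPM against 26.2 to 43.0, had a log2 fold change of 0.66 ± 0.26 and was not called (edgeR adjusted p = 0.225).

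With 2 KO-corticosterone libraries, both with codes that begin with H, no member was called among 24 tested, where 0.521% of 576 microRNAs were. At an unadjusted p below 0.05 in edgeR there were 4 of the 24 members, against 40 of the 576 microRNAs, and DESeq2 called no member. The 2 libraries lay outside the KO-water range for 8 of the 24 members, against 13.4% of all microRNAs tested. miR-669a-3p was at 76.6 and 118 CPM (0.77 ± 0.29, edgeR adjusted p = 0.559), and miR-467e-5p at 67.2 and 53.5 CPM (0.81 ± 0.29, edgeR adjusted p = 0.547).

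With the members left out, the KO-water libraries fell into 2 sets. The first principal component of within-group variation, computed over microRNAs outside the set and centred on each group, held 36.9% of that variance. On it KO-water 3, 4 and 6 scored 8.73, 15.1 and 13.2 and KO-water 1, 2 and 5 from -12.7 to -11.9. The first 3 are the KO-water libraries of the deposited table that pairs KO-water with WT-water. WT-exercise 1 and 2, at -11.0 and -14.3, also stood apart from WT-exercise 3, 4 and 5, at 5.72 to 13.0. WT-water libraries spread little, from -1.51 to 0.887.

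2 members followed this component closely. Over the 31 libraries, Pearson's r between the score and the deviation of log2 CPM from the group mean was 0.81 for miR-466d-5p and 0.82 for miR-466n-5p. It was 0.44 for miR-669a-3p, 0.31 for miR-467e-5p, -0.09 for miR-467a-5p, -0.33 for miR-467a-3p and -0.54 for miR-669a-5p. These values are descriptions, as the libraries share the scaling and the groups. In KO-water 3, 4 and 6 miR-466d-5p was at 11.4, 21.5 and 18.5 CPM, and in KO-water 1, 2 and 5 at 5.78, 7.32 and 8.60. Its partner arm went the other way, with miR-466d-3p at 3.12, 5.17 and 6.02 CPM in the first 3 and 8.26, 8.37 and 9.24 in the others. The 5p arm therefore gave 78.6%, 80.6% and 75.5% of miR-466d counts in the first 3, and 41.2%, 46.7% and 48.2% in the others. miR-466n-5p was at 14.0, 12.9 and 13.4 CPM against 4.13, 4.71 and 6.37. The counts behind the miR-466d values are few, from 6 to 40 per arm in these 6 libraries.

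**Figure D5:**
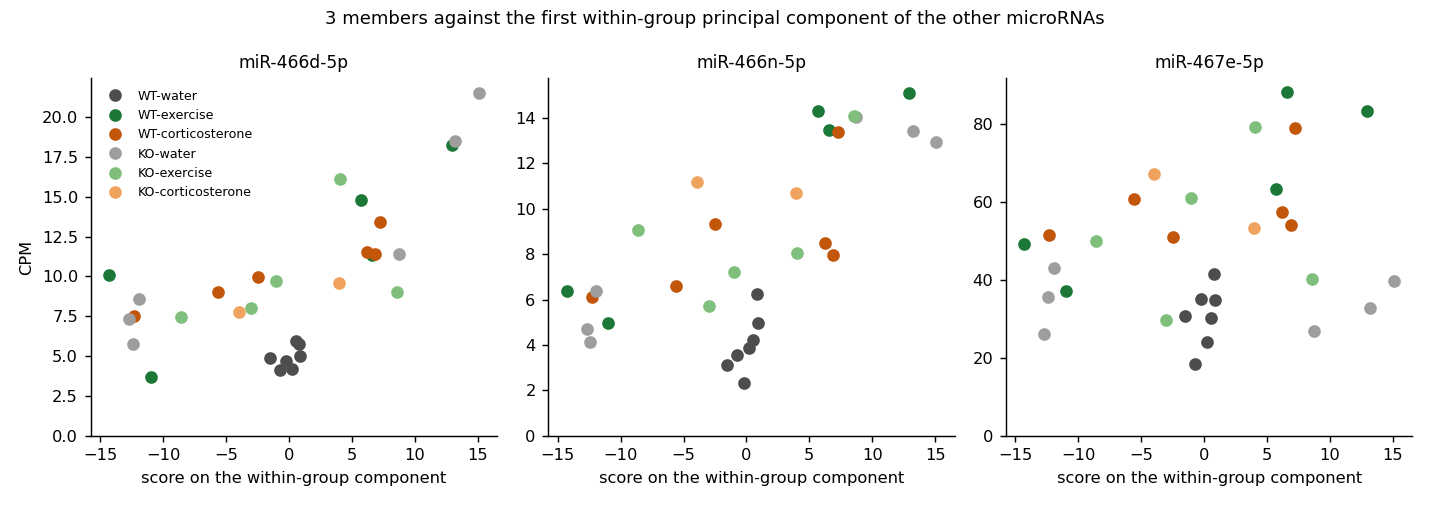
Level (CPM) of miR-466d-5p, miR-466n-5p and miR-467e-5p in the 31 libraries against the library's score on the first within-group component of the other microRNAs (no unit, centred on each group), coloured by group. The 2 miR-466 arms are at their highest where scores are high and at 3.72 to 10.1 CPM in the libraries with scores of -14.3 to -11.0; the WT-water libraries sit near 0.

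KO-water against WT-water, the comparison of genotype under standard housing, called none of 22 members and 0% of 545 microRNAs, and the groups overlapped for every member tested, with 0.917% of all microRNAs not overlapping. At an unadjusted p below 0.05 in edgeR there were 2 of the 22 members, against 179 of the 545 microRNAs. They were miR-466d-5p (1.28 ± 0.32, edgeR adjusted p = 0.0555) and miR-466n-5p (1.15 ± 0.35, edgeR adjusted p = 0.0701). DESeq2 called both of them, among 115 of the 545 microRNAs. With KO-water 3, 4 and 6 alone, 3 of 23 members were called, as were 354 of all 581 microRNAs tested. They were miR-466d-5p (1.94 ± 0.25, edgeR adjusted p = 1.67e-05), miR-466n-5p (1.87 ± 0.28, edgeR adjusted p = 6.78e-05) and miR-467d-5p (0.98 ± 0.40, edgeR adjusted p = 0.0448). This subset is the high-scoring set, where both miR-466 arms stood above the other KO-water libraries. Its p-values therefore cannot separate genotype from the split among KO-water libraries. Within code letters no member was called, nor any of 549 (G) and 551 (H) microRNAs, and miR-466d-5p was at 1.06 (G) and 1.70 (H). With KO-water 1, 2 and 5 no member was called, nor any of 587 microRNAs. The values there were 0.53 for miR-466d-5p and 0.29 for miR-466n-5p. For the abundant members the log2 fold changes were 0.19 ± 0.16 for miR-467a-5p, -0.12 ± 0.22 for miR-669a-3p and 0.16 ± 0.21 for miR-467e-5p.

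KO-exercise against WT-exercise called none of 21 members and 0% of 517 microRNAs. No member had an unadjusted p below 0.05 in edgeR, against 5 of the 517 microRNAs. DESeq2 called none, and the groups overlapped for every member tested (0.58% of all microRNAs did not). miR-467a-5p had a log2 fold change of -0.40 ± 0.19, with KO-exercise libraries at 113.9, 80.4, 89.7, 69.5 and 101 CPM against 102.3 to 166.1.

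Whether the response to treatment differed by genotype was tested as an interaction. For exercise none of 24 members was called, nor any of 571 microRNAs (0%). There were 3 of the 24 members at an unadjusted p below 0.05 in edgeR, against 101 of the 571 microRNAs. They were miR-466d-5p (-1.52 ± 0.50), miR-466n-5p (-1.54 ± 0.52) and miR-467a-5p (-0.65 ± 0.24), each with an edgeR adjusted p of 0.19. For corticosterone none of 26 was called, nor any of 630 microRNAs (0%). Here 2 members had an unadjusted p below 0.05 in edgeR, against 65 of the 630 microRNAs: miR-466d-5p (-1.50 ± 0.48) and miR-467d-3p (1.40 ± 0.64). DESeq2 called no member in either. With KO-water 3, 4 and 6 alone, miR-466d-5p and miR-466n-5p were called in both interactions. Their values were -1.99 and -2.08 for exercise and -2.02 and -1.35 for corticosterone. As both arms were high in these 3 KO-water libraries, the calls cannot be told apart from the split among KO-water libraries. In that subset 2 of 24 members were called for exercise, against 252 of 596 microRNAs, and 2 of 26 for corticosterone, against 213 of 626. With KO-water 1, 2 and 5 no member was called in either interaction, nor any of 601 (exercise) and 621 (corticosterone) microRNAs. With all libraries and the within-group component, itself computed from these libraries, as a covariate, miR-466d-5p (-1.32, edgeR adjusted p = 0.00521), miR-466n-5p (-1.3, edgeR adjusted p = 0.00568) and miR-467a-5p (-0.64, edgeR adjusted p = 0.0326) were called for exercise and miR-466d-5p (-1.38, edgeR adjusted p = 0.00633) for corticosterone. These were 3 of 24 and 1 of 26 members. Of all microRNAs, 74 of 571 were called upward and 89 downward for exercise. For corticosterone 57 of 630 were called upward and 52 downward. In both interactions the share of members called was below the share of all microRNAs called.

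Lists of cell type microRNAs were read in the same comparisons, and whether they moved together with the members was not tested. Of all microRNAs tested, 19.9% rose and 12.7% fell in WT-exercise against WT-water. In WT-corticosterone against WT-water these shares were 24.9% and 17%. In WT-exercise and WT-corticosterone 3 and 4 of the 5 listed microglial and immune microRNAs rose and none fell, with summed levels of 2774 to 10890 and 2795 to 8336 CPM against 2435 to 3460 in WT-water. Of the 3 oligodendrocyte microRNAs 1 fell in each, with summed levels of 1802 to 6787 and 1853 to 6639 CPM against 5642 to 7420. Of the 3 red blood cell microRNAs, 1 fell after exercise, and 1 rose and 1 fell after corticosterone (454.5 to 1862 and 477 to 1197 CPM against 1154 to 2415). Of the 4 vessel microRNAs 2 rose in each, and of the 4 choroid plexus and ciliated cell microRNAs 1 rose in each. Of the 4 neuronal microRNAs, 1 fell after exercise and 1 rose and 1 fell after corticosterone, with summed levels of 290000 to 370600 CPM in WT-water. In KO-exercise against KO-water, where 3.06% of all microRNAs tested rose, 2 of the 5 microglial and immune microRNAs rose. Their summed levels were 3796 to 7321 CPM against 2476 to 9014, and the median log2 fold change of the list was -0.04. No microRNA of the other 5 cell type lists was called there. No listed microRNA was at 0 throughout a group, and the part of these cell types in the members' results was not tested. miR-672-5p, the most abundant of the 7 outside rows with a GU or AC run, rose by 0.90 ± 0.22 after exercise and 0.71 ± 0.18 after corticosterone in wild type (edgeR adjusted p = 0.00801 and 0.00597). Its value in KO-water against WT-water was 0.91 ± 0.26 (edgeR adjusted p = 0.0598). In knockout mice it was not called, at -0.07 ± 0.32 after exercise and -0.37 ± 0.48 after corticosterone (edgeR adjusted p = 0.978 and 0.867).

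Among the 463 other microRNAs with a mean of at least 10 CPM, those whose deviations from the group mean were most like those of miR-467a-5p over the 31 libraries were miR-18a-5p (Pearson's r = 0.52), miR-101b-3p (0.50), miR-297a-3p (0.50), miR-466b-3p (0.47) and miR-124-3p (0.47). Of these 5, miR-297a-3p and miR-466b-3p are members of the set. The spread of miR-467a-5p within groups, a coefficient of variation of 12% to 21.4%, was above the 5.95% to 7.52% that counting alone would give at its mean counts.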

How the data were processed

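The authors deposited whole-number read counts per mature microRNA, not normalized, in 5 tables that each pair groups; 24 columns repeated between tables had no differing value. The submitters' processing notes name the build GRCm38 (mm10) and the tools featureCounts, Subread, BWA, limma 3.54.1 and cutadapt 2.3, without role or order; strand and multi-mapping settings are not given in the sources used here. Columns were matched to samples by the code in the labels.

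Each comparison was fitted over all microRNAs of its own groups in edgeR 4.0.16 (R 4.3.3): filterByExpr, TMM, estimateDisp, robust glmQLFit, quasi-likelihood F test, two-sided, Benjamini-Hochberg over all tested, called below 0.05. The SE is the log2 fold change over the square root of F. CPM used TMM factors over 31 libraries. The test was tried on simulated data with the same dispersion for every microRNA, changes only at 10 CPM or more and no within-group component, unlike these data. From 45% (corticosterone interaction) to 97% (KO-exercise against KO-water) of simulated log2 changes of 1 were recovered. P-values set the difference between groups against the spread between labelled biological replicates. The closest pair within a group had a chi-square per degree of freedom of 16.1, so no pair was counted as 1 library. The deposited table of genotypes under water holds KO-water 3, 4 and 6; its remaining knockout column is KO-exercise 4 by the labels and was used as such.

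Named members were the 12 most abundant, those called in any of 9 comparisons, and the leading member of each shared seed; members given for an unadjusted p, for miR-466q and for calls in subsets were chosen after their values were seen. The members, lists and rules were chosen with earlier results of these data known. DESeq2 1.42.0, other scalings and filters, covariates, subsets and a replicate block were tried; same-numbered libraries did not deviate together (in no comparison was the correlation over 0.1 for every pair).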

Additional observations from a re-analysis of the deposited data

Results flagged for a closer look

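Values of 6 members lay far from the rest of their group in 1 library each, by the gap to the nearest library over the range of the group; 85 sets of values were checked, and chance flags about 1 in 20. miR-467e-5p was at 79.1 CPM in WT-corticosterone 6 (others 51.0 to 60.7). miR-669a-5p was at 27.3 CPM in KO-exercise 5 (13.8 to 16.1), and miR-466d-5p at 16.1 CPM in KO-exercise 4 (7.45 to 9.73). miR-466b-3p was low, at 10.7 CPM, in WT-exercise 5 (15.5 to 17.2), and so was miR-467d-5p, at 2.01 CPM, in KO-exercise 2 (9.73 to 11.8), the library with the fewest counts. miR-297c-3p was at 1.94 CPM in WT-water 3 (4.04 to 5.34).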

How the results depend on the processing

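No log2 fold change of a single member given for an unadjusted p below 0.05 changed sign under any alternative that tested it. The median over all microRNAs did so under several, for example without scaling factors (0.04 to -0.07 after exercise and 0.06 to -0.07 after corticosterone in wild type). Members called in WT-exercise against WT-water numbered 2 among microRNAs with a mean of at least 10 CPM, 1 with the replicate block and 0 within code letter G (3 to 8 when 1 library was left out). With no filter on low counts miR-467b-3p, which had 34 counts in all and none in WT-exercise, was called as a fall in that comparison. In WT-corticosterone against WT-water they were 5 without scaling factors, 2 at 10 CPM and 4 within code letter G (5 to 8). In KO-exercise against KO-water member calls were 0 with no filter, with the replicate block and within either code letter, 3 with the within-group component as covariate and 2 with the KO-water libraries of the genotype table (0 to 1). Over all microRNAs the settings with 0 called 11 of 1404, 8 of 523, 3 of 539 (G) and 1 of 564 (H). The last 2 settings called 126 of 523 and 177 of 540 microRNAs. In KO-corticosterone against KO-water the replicate block gave 1 member call (0 to 0), with 78 of 576 microRNAs called. In KO-water against WT-water DESeq2, the joint fit and the component each gave 2 member calls, DESeq2 size factors and no filter each 1, and the genotype-table libraries 3 (0 to 2). Over all microRNAs these settings gave, in the same order, 115, 69, 257, 26, 23 and 354 calls, where the main fit gave 0. Member calls in the interaction with exercise were 3 with the component and 2 with the genotype-table libraries, and with corticosterone 1 and 2 (0 to 0 in both). Over all microRNAs the component gave 74 upward and 89 downward calls for exercise, and 57 and 52 for corticosterone. The genotype-table libraries gave 252 and 213 calls. KO-exercise against WT-exercise and WT-corticosterone against WT-exercise gave 0 throughout. The component was computed from the same libraries, and the genotype-table libraries are the KO-water libraries that scored high on it. The other 82 counts stayed within 1.5 times. Of the values of single members, 329 kept their side of the threshold, 23 crossed into a call and 32 out of it, with the direction kept. Members numbered 36 at 1 CPM or more and 1 at 100 or more (8 to 8 at 10 CPM). Why the settings differ was not tested, except that the stricter filter and the code letters leave fewer members or libraries. Depth limits the low members: 54 of 80 were tested in no comparison.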
